A study of Mus musculus with 8 samples.

Results

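The genes described here encode the machinery of the lysosome: 48 listed genes for proteases (8), glycosidases and sulfatases (13), lipid hydrolases and their helpers (7), lysosomal membrane proteins (8), the proton pump V-ATPase (8) and the TFEB family of transcription factors with folliculin (4). They were matched by symbol; all 48 were found among the 57186 genes in the count tables, and all 48 passed the low-count filter that left 16766 genes for testing. Total RNA of mouse brain was sequenced from 4 libraries of control mice and 4 libraries of mice with a conditional knockout (cKO) of Akap11, a gene for an anchoring protein of protein kinase A that the series title also describes as an autophagy receptor. The sources used here do not give the control genotype, strain, age, sex, brain region, recombinase or deleted exons. Since the labels number replicates but tie none to a mouse of its own, the p-values refer to the spread among these libraries, which may be technical.

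Lysosomes receive material from autophagy and endocytosis and break it down with acid hydrolases. V-ATPase pumps protons into the lumen and so gives these enzymes the acidity they need, while membrane proteins hold the organelle together and export the products. Many of the genes share regulation by TFEB, TFE3 and MITF, basic helix-loop-helix factors that enter the nucleus when the kinase mTORC1 at the lysosome is inactive, and inherited loss of many of the enzymes causes storage disease of the brain. The counts measure RNA, and neither acidity, enzyme activity nor autophagic turnover.

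None of the 48 genes passed edgeR's quasi-likelihood test of cKO against control brain, adjusted over all genes tested, in either direction. DESeq2 and limma voom called 0 of them as well, and 1, Arsa, had an unadjusted edgeR p under 0.05. Across all tested genes, 0.0239% passed (4 genes). Among the 48, the lowest adjusted p was 0.889, and the highest log2 fold change (cKO minus control, on scaled read counts) was 0.23 for Tfeb and the lowest -0.12 for Ctsl. The 95% intervals of all 48 lay within a 1.5-fold change in either direction, and those of 42 within 0.32 of 0 on the log2 scale; of all genes tested, 76.8% and 53.5% had intervals this narrow. The median log2 fold change was 0.0092 over the 48 genes and 0.0034 over all genes tested, with 26 of the 48 above 0 and 22 below. A brain sample mixes cells, so changes confined to some of them are not bounded by these intervals, and fewer cells of a type cannot be told apart from less RNA per cell.

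**Figure D1:**
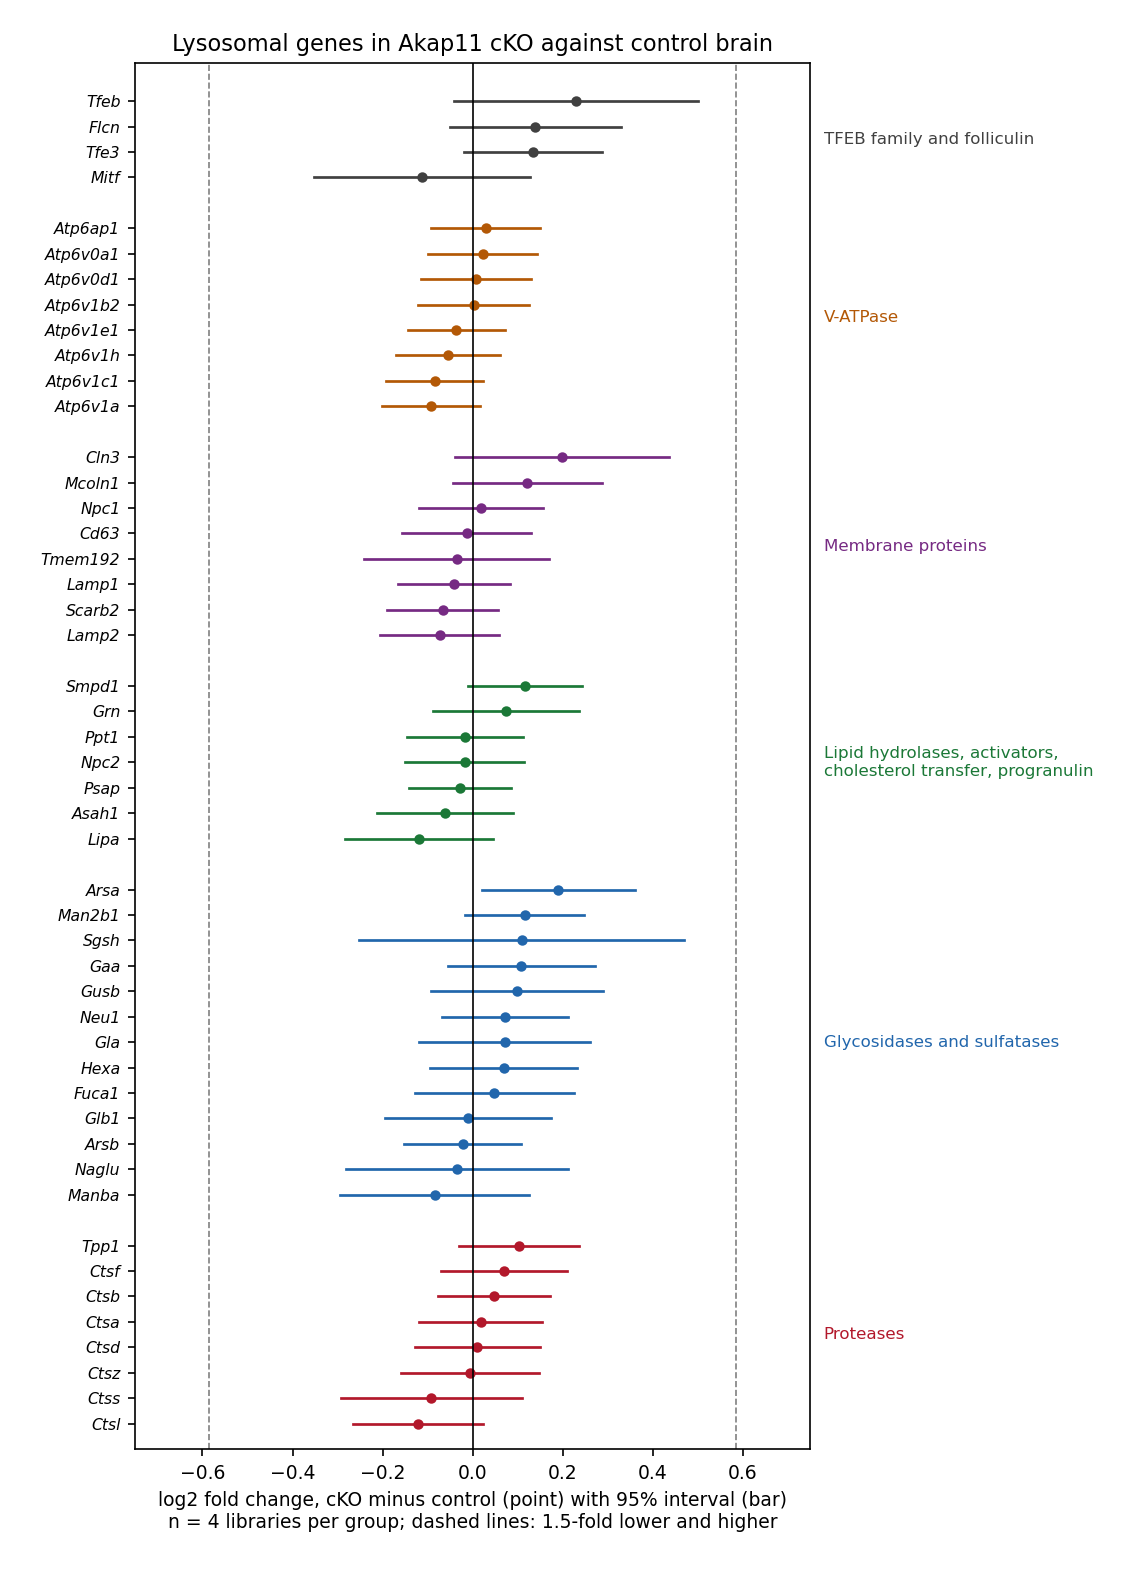
Log2 fold change (horizontal axis, cKO minus control, n = 4 libraries per group) of each of the 48 lysosomal genes as a point with its 95% interval as a bar, grouped and coloured by class; dashed lines mark 1.5-fold. All 48 intervals lie inside the dashed lines, and that of Arsa alone, from 0.02 to 0.36, leaves out 0.

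The labels were first checked on the targeted gene. Akap11 (ENSMUSG00000022016) held 373, 312, 315 and 291 CPM (read counts scaled to library size) in control replicates 1 to 4 and 220.5, 214, 237 and 240.5 CPM in cKO replicates 1 to 4, with no overlap. It fell by 29.3%, from 323 ± 35.3 to 228 ± 12.7 CPM (SD, n = 4), with an edgeR adjusted p of 0.0103. This call was lost without control replicate 2 (edgeR adjusted p 0.0616) and without cKO replicate 2 (0.104). Reads in genes numbered 13841218 to 19991942 per library, which gave a lysosomal gene between 63 reads (Sgsh) and 37357 reads (Psap) in a library, with a median of 1122. Genes took 63.8% of the reads listed for cKO replicate 1 and 73.7% to 79.7% of those listed for each other library. cKO replicate 1 lay at 39.1 on the first principal component, which held 23.3% of the variance, with the others between -10.5 and 0.48, and on the second component control replicate 1 stood apart. Markers of neurons, astrocytes and oligodendrocytes were present in each library, as the tissue label implies: summed over their lists they held 5002 to 5758, 4554 to 5554 and 5336 to 6664 CPM, with excitatory neurons as the first of these.

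cKO replicate 1 bears on the lysosomal genes. It held the highest of the 8 values for 23 of the 48 genes, where the next library, control replicate 3, held 9. Over genes, the median coefficient of variation was 4.65% among the control libraries and 7.39% among the cKO libraries, or 5.27% among the cKO libraries without replicate 1. Without that library 12 of the 48 genes changed the sign of their log2 fold change, 18 were above 0 and 30 below, and the median moved to -0.02. The log2 fold change from the fit without this library is given below for each of the 48 genes.

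By level per length (CPM per kilobase of the longest transcript, averaged over the 8 libraries), prosaposin RNA stood far above the rest. Psap, the precursor of the saposins that present lipids to hydrolases, stood at 703 CPM per kilobase and made up 22.4% of the summed CPM of the 48 genes. Subunits of V-ATPase held the next places, from 262 for Atp6v1b2 to 133 for Atp6v0d1, and the 8 V-ATPase genes together made up 39.2% of the sum. Among hydrolases, the protease gene Ctsb at 127 and the glycogen-degrading Gaa at 123 led, and Lamp1 at 104 led the membrane proteins. At the other end were Sgsh at 1.49, Mitf at 2.16, Manba at 3.17, Tfeb at 3.78 and Naglu at 3.78. The 48 genes together took 0.809% to 0.894% of the reads in genes, the highest share being that of cKO replicate 1. By class, the median level per kilobase ran from 138 for V-ATPase through 25.7 for proteases, 25.2 for the lipid class and 23.7 for membrane proteins to 9.87 for glycosidases and sulfatases and 4.83 for the TFEB family with folliculin. The proteases, the lipid class and the membrane proteins differed little beside the spread of their members. For all genes tested the median was 5.89.

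**Figure D2:**
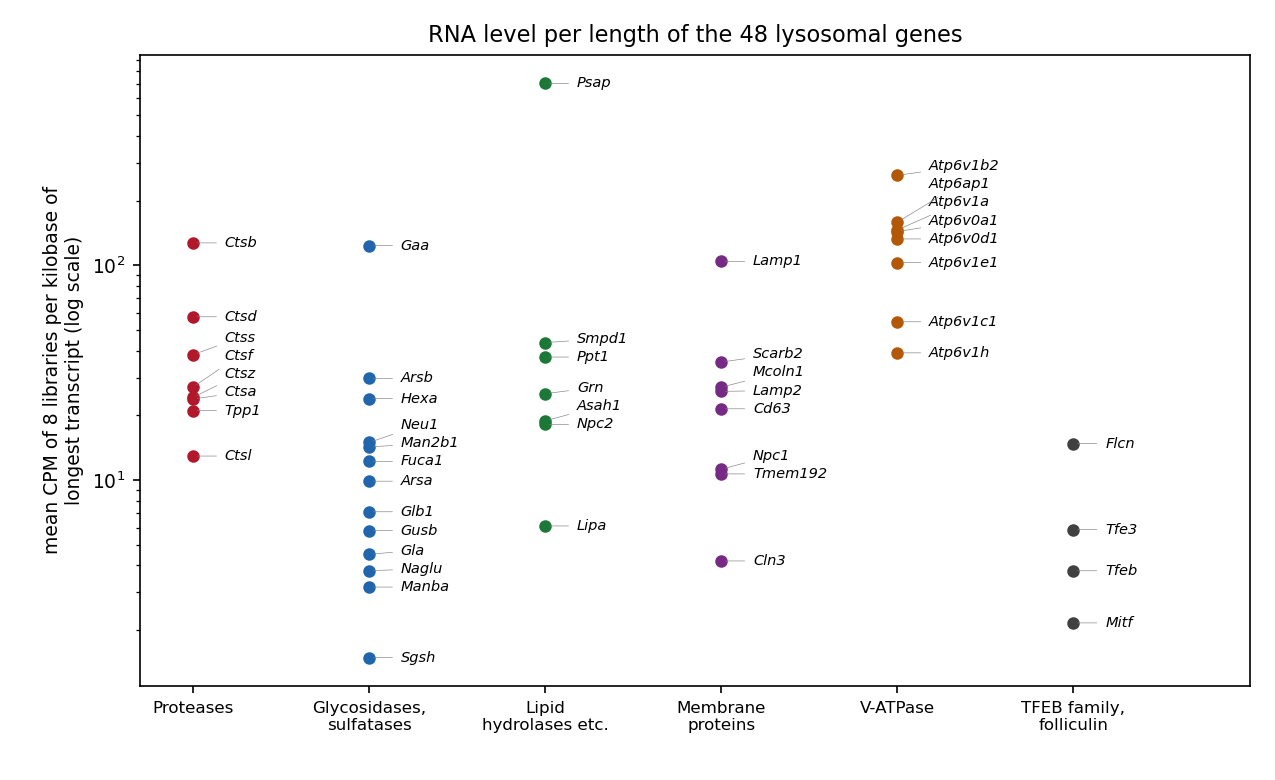
Mean CPM of the 8 libraries per kilobase of longest transcript (vertical axis, log scale) of the 48 genes, 1 point per gene, by class (horizontal axis). Psap at 703 stands alone at the top, 6 of the 8 V-ATPase genes lie above 100, and Sgsh at 1.49 lies lowest.

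TFEB and its relatives are known to bind E-boxes in lysosomal promoters. The E-box CACGTG, its extended form TCACGTGA and the 10-letter palindrome of the CLEAR element (coordinated lysosomal expression and regulation), which is the extended form with a G before and a C after it, were searched in RefSeq promoter windows of build GRCm38.p6, from 250 bases before to 50 after a gene's start. All 3 motifs read the same on both strands, and each longer one contains the shorter. A gene with more than 1 window counted as holding a motif if any window did. Cln3 and Ctsa each had another window with 0 copies of CACGTG. The windows of Flcn and Atp6v0a1, which lack CACGTG, were not matched to the start of a GENCODE M21 transcript. Of the 48 genes, 42 had a window, and 15 of them (35.7%) held CACGTG, where 8.09% of 27025 genes with a window and 11.1% of the tested ones did. The 8-letter form stood in 7 genes (16.7%, against 1.12% of all and 1.96% of tested genes) and the 10-letter form in 1 (2.38%, against 0.37% and 0.688%). By class, CACGTG was present in 4 of 7 protease genes, 6 of 13 for glycosidases and sulfatases, 3 of 7 for membrane proteins and 2 of 5 for V-ATPase. It was in no window of the 6 lipid class genes and of the 4 genes of the TFEB family and folliculin, which says only that these letters are not in those windows. The windows that follow are shown because they hold the extended form, and that of Lamp1 because it holds 4 copies of the short one; capitals mark the motif.
Cln3 (chr7:126583335-126583374, minus strand): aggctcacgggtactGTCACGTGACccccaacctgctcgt
Mcoln1 (chr8:3500458-3500495, plus strand): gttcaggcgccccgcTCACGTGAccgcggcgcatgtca
Ctsa (chr2:164833745-164833799, plus strand): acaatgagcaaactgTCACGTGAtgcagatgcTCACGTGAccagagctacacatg
Ctsd (chr7:142387904-142387941, minus strand): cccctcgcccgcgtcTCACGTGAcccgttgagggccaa
Gla (chrX:134601178-134601248, minus strand): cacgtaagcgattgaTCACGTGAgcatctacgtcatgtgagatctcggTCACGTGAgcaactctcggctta
Atp6v1a (chr16:44139369-44139406, minus strand): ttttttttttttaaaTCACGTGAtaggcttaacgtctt
Atp6v0d1 (chr8:105566046-105566083, minus strand): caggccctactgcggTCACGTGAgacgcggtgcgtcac
Lamp1 (chr8:13159085-13159166, plus strand): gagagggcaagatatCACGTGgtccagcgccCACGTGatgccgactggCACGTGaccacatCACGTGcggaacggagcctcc

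Positions are counted from the gene start of the window shown. The motif starts 123 bases before it in Cln3, 46 in Mcoln1, 99 in Ctsd, 132 in Atp6v1a and 4 in Atp6v0d1. Ctsa has its copies on either side of the start, and the 4 copies of Lamp1 fall between 61 and 15 bases before it. Genes with the 8-letter form did not share a direction in cKO brain: their log2 fold changes ran from -0.09 for Atp6v1a to 0.20 for Cln3, with a median of 0.02 over 7 genes. The other 35 genes with a window had a median of -0.0052, within a range from -0.12 to 0.23. For CACGTG the medians were 0.02 with the motif (15 genes) and -0.0052 without it (27 genes).

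The genes of the TFEB family stood at low levels, while Flcn, the folliculin gene listed with them, stood at 14.8 CPM per kilobase. Of these 4 genes, 3 had positive values that did not pass. Tfeb (ENSMUSG00000023990), a master regulator of lysosomal genes, held 8.57, 7.39, 7.35 and 9.19 CPM in control replicates 1 to 4 and 10.9, 10.4, 9.10 and 7.83 CPM in cKO replicates 1 to 4. The groups overlapped, since cKO replicate 4 lay below control replicates 1 and 4 and cKO replicate 3 below control replicate 4. Its log2 fold change was 0.23 (SE 0.13, 95% interval -0.04 to 0.50, edgeR adjusted p 0.889), or 0.16 in the fit without cKO replicate 1 and 0.12 in that with GC-content offsets.

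Tfe3 (ENSMUSG00000000134), its close relative on chromosome X, held 36.2, 37.5, 32.9 and 35.3 CPM in the control libraries and 38.6, 37.99, 42.1 and 37.0 CPM in the cKO libraries. Only cKO replicate 4 lay below a control library. Its log2 fold change was 0.13 with an SE of 0.073 (95% interval -0.02 to 0.29, edgeR adjusted p 0.889), and 0.14 without cKO replicate 1. Mitf, known best from pigment cells, stood at 10.99 ± 0.537 CPM in controls and 10.1 ± 1.41 CPM in cKO brain (SD, n = 4), a log2 fold change of -0.11, or -0.04 without cKO replicate 1. Flcn, whose product folliculin lets mTORC1 hold the family in the cytosol, stood at 50.1 ± 4.34 and 55.4 ± 8.21 CPM. Its log2 fold change of 0.14 was 0.04 without cKO replicate 1, the library with its highest value (66.9 CPM). The median of the 4 genes was 0.14, or 0.09 without that library. Of the 4 intervals, only 1, that of Tfe3, lay within 0.32 of 0.

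Proteases showed no shared direction, with 5 of 8 genes above 0 and a median log2 fold change of 0.01. The most abundant, the cysteine protease gene Ctsb, held 592 ± 17.9 CPM in control brain against 612 ± 47.2 CPM in cKO brain (SD, n = 4), a log2 fold change of 0.05 with a 95% interval from -0.08 to 0.17, or -0.0035 without cKO replicate 1. Ctsd, which encodes the main aspartic protease of the lysosome, stood at 122 ± 8.68 and 123 ± 8.88 CPM, a log2 fold change of 0.01 that was -0.03 without that library. The cysteine protease genes Ctsf and Ctsz stood at 0.07 and -0.0052 (0.02 and 0.01 without it). Ctsa, a carboxypeptidase that also shields beta-galactosidase and sialidase, stood at 0.02 (-0.04 without it), so that the sign turned for Ctsa, Ctsb, Ctsd and Ctsz. Tpp1, the tripeptidyl peptidase lost in a form of Batten disease, stood at 0.10, or 0.05 without cKO replicate 1. None of the 8 genes reached an unadjusted p under 0.05, and every interval lay within 0.32 of 0. Without cKO replicate 1 the class median was -0.01.

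Ctsl had the lowest log2 fold change of the 48 genes, at -0.12 (SE 0.069, 95% interval -0.27 to 0.02). This cysteine protease gene held 89.1, 72.5, 90.9 and 79.7 CPM in control replicates 1 to 4 and 76.8, 76.8, 74.6 and 77.3 CPM in cKO replicates 1 to 4. The control libraries were spread on both sides of the cKO values, with replicate 2 below them all. Without control replicate 2 the unadjusted edgeR p was 0.0179, and over the fits with 1 library left out the log2 fold change ranged from -0.18 to -0.08, and was -0.13 without cKO replicate 1. 

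Ctss, a cathepsin made in the brain mainly by microglia, held 64.3, 48.3, 52.6 and 49.4 CPM in the control libraries and 41.7, 49.1, 55.1 and 54.9 CPM in the cKO libraries. Control replicate 1 was highest and cKO replicate 1 lowest, and the others overlapped. Its log2 fold change was -0.09 (SE 0.096), or -0.02 without cKO replicate 1, 0.0088 without control replicate 1 and 0.08 without both. The 19 microglial marker genes summed to 434 to 515 CPM in control libraries and 453 to 488 CPM in cKO libraries, and control replicate 1 held the highest sum as well. Of these markers 10 were above 0 and 9 below, with a median log2 fold change of 0.0051 and no call. P2ry12, the purinergic receptor of resting microglia, stood at -0.26 (edgeR adjusted p 0.889), with 30.8 to 36.1 CPM in control libraries and 25.8 to 29.3 CPM in cKO libraries. It was the only 1 of the 19 markers whose groups did not overlap. Groups separated in this direction in 1.39% of all tested genes.

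Glycosidases and sulfatases lay on the positive side, with 9 of 13 genes above 0 and a median log2 fold change of 0.07. The size of this median depended on cKO replicate 1. That library held the highest value for 8 of the 13 genes. Without it most of the 13 genes still lay above 0, but the median was 0.00058. Arsa was the only 1 of the 48 genes with an unadjusted edgeR p under 0.05 (2.08% of them, where 4.78% of all tested genes reached it, 2.87% higher and 1.91% lower in cKO). The gene (ENSMUSG00000022620, chromosome 15) encodes arylsulfatase A, which degrades the myelin lipid sulfatide. It held 29.8, 31.2, 33.1 and 34.5 CPM in control replicates 1 to 4 and 40.6, 37.99, 36.1 and 32.5 CPM in cKO replicates 1 to 4. In 3 of the 4 cKO libraries it lay above all controls, and cKO replicate 4 lay among them. The log2 fold change was 0.19 (SE 0.081, 95% interval 0.02 to 0.36) with an unadjusted edgeR p of 0.0295 and an adjusted p of 0.889. Over the fits with 1 library left out it ran from 0.14 to 0.24 with unadjusted edgeR p from 0.00698 to 0.0884, under 0.05 in 4 of 8 fits, and it was 0.14 without cKO replicate 1. With GC-content offsets it was 0.13 (unadjusted edgeR p 0.0594). With both control replicate 1 and cKO replicate 1 left out it was 0.11 (unadjusted edgeR p 0.183). Under the replicate block the unadjusted edgeR p was 0.0531. Markers of mature oligodendrocytes, the cells that make sulfatide, summed to 5557 to 6664 CPM in control libraries and 5336 to 6101 CPM in cKO libraries.

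Man2b1 (ENSMUSG00000005142, chromosome 8), the lysosomal alpha-mannosidase, was the only 1 of the 48 whose 4 cKO libraries all lay above the controls; 1.57% of all tested genes did so. It held 54.4, 51.3, 52.9 and 50.5 CPM in the control libraries and 60.8, 54.9, 55.1 and 55.9 CPM in the cKO libraries. The gap between the groups was narrow, and cKO replicate 1 was the highest. Its log2 fold change was 0.12 (SE 0.063, 95% interval -0.02 to 0.25, edgeR adjusted p 0.889), or 0.08 without cKO replicate 1.

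Gaa, the acid alpha-glucosidase of glycogen, was the most abundant gene of this class: control brain held 431 ± 13.6 CPM and cKO brain 465 ± 69.2 CPM (SD, n = 4). Single cKO libraries held 563, 462, 431 and 405 CPM, and the log2 fold change of 0.11 was 0.00058 without replicate 1. The same holds for Hexa, the alpha subunit of beta-hexosaminidase A, at 0.07 and -0.00027 without that library. Sgsh, the sulfamidase of heparan sulfate, stood at 0.11 (SE 0.17) and at 0.00015 without cKO replicate 1. Its value was -0.05 without control replicate 2, the library with its fewest reads (63). Gusb (beta-glucuronidase) stood at 0.10, Neu1 (sialidase) and Gla (alpha-galactosidase A) at 0.07 each, and Fuca1 (alpha-L-fucosidase) at 0.05. Without cKO replicate 1 they stood at 0.05, 0.04, 0.07 and 0.03. Below 0 were Manba (beta-mannosidase) at -0.08, Naglu, which acts on heparan sulfate, at -0.03, Arsb (arylsulfatase B) at -0.02 and Glb1 (beta-galactosidase) at -0.0097. Without that library these stood lower, at -0.09, -0.11, -0.08 and -0.04. None of these passed.

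Lipid hydrolases and the proteins that help them had 5 of 7 genes below 0 and a median log2 fold change of -0.02. Smpd1 (ENSMUSG00000037049, chromosome 7), the acid sphingomyelinase, held 107, 92.4, 104 and 100.3 CPM in control replicates 1 to 4 and 114, 111, 108 and 105 CPM in cKO replicates 1 to 4. The cKO libraries lay above 3 of the 4 controls, and cKO replicate 4 lay below control replicate 1. The log2 fold change was 0.12 (SE 0.060, 95% interval -0.0091 to 0.24, edgeR adjusted p 0.889). It was 0.10 without cKO replicate 1, 0.08 without control replicate 2 and 0.07 with GC-content offsets. Lipa, the acid lipase of cholesteryl esters, lay on the other side at 24.8 ± 0.952 CPM in control brain against 22.8 ± 0.999 CPM in cKO brain, a log2 fold change of -0.12, or -0.14 without cKO replicate 1.

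Psap, the most abundant gene of all 48, was measured tightly. It held 1920, 1879, 1866 and 1875 CPM in the control libraries and 1996, 1856, 1766 and 1781 CPM in the cKO libraries, a log2 fold change of -0.03 with a 95% interval from -0.14 to 0.09. Apart from cKO replicate 1, the highest of all 8, the cKO libraries lay below every control, and without that library the value was -0.07. Asah1 (acid ceramidase) stood at -0.06, and Ppt1 (a thioesterase for palmitoylated proteins) and the cholesterol carrier gene Npc2 at -0.02 each; without cKO replicate 1 the 3 genes stood at -0.02, -0.04 and -0.01. Grn, which encodes progranulin, stood at 57.4 ± 4.54 and 60.6 ± 6.36 CPM, a log2 fold change of 0.07, or -0.00078 without cKO replicate 1.

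Among membrane proteins 3 of 8 genes were above 0, and the median log2 fold change was -0.02. The structural genes Lamp1 and Lamp2 stood at 235 ± 8.79 and 229 ± 16.7 CPM, and at 95.6 ± 5.07 and 90.8 ± 5.48 CPM, in control and cKO brain (SD, n = 4). Their log2 fold changes were -0.04 (95% interval -0.17 to 0.08) and -0.07 (-0.20 to 0.06), or -0.09 and -0.06 without cKO replicate 1. Lamp1 stood at -0.0024 without cKO replicate 2. Scarb2, which encodes an abundant protein of the lysosomal membrane, stood at -0.07, the tetraspanin gene Cd63 at -0.01 and Tmem192 at -0.04. Without cKO replicate 1 these stood at -0.03, 0.0062 and -0.04. The cholesterol exporter gene Npc1 stood at 64.2 ± 3.83 and 65.0 ± 3.65 CPM, a log2 fold change of 0.02, or -0.0022 without that library.

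Cln3 and Mcoln1 had the 2 highest values of this class. Cln3 (ENSMUSG00000030720), mutated in juvenile Batten disease, held 10.7, 12.8, 12.2 and 14.3 CPM in control replicates 1 to 4 and 14.5, 11.9, 15.8 and 15.3 CPM in cKO replicates 1 to 4. In 3 cKO libraries it lay above all controls, while cKO replicate 2 lay below 3 of them. Its log2 fold change of 0.20 (SE 0.11, 95% interval -0.04 to 0.44) was 0.19 in the fit without cKO replicate 1 and in that with GC-content offsets. Mcoln1, the lysosomal calcium channel that feeds back on TFEB, held 65.9, 75.9, 71.98 and 85.1 CPM in the control libraries and 93.3, 75.1, 79.0 and 78.6 CPM in the cKO libraries. The groups overlapped, and the log2 fold change of 0.12 (SE 0.080) was 0.05 without cKO replicate 1. Neither gene passed the adjusted edgeR test (adjusted p 0.889 for each).

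V-ATPase genes were abundant and had the narrowest range, from -0.09 to 0.03, with all 8 intervals within 0.32 of 0. Of the 8, 4 were above 0 and 4 below, with a median log2 fold change of -0.02. Atp6v1a (ENSMUSG00000052459, chromosome 16), the catalytic subunit, held 674, 629, 622 and 627 CPM in control replicates 1 to 4 and 585, 608, 592 and 610 CPM in cKO replicates 1 to 4. Every cKO library lay below every control, as it did for Atp6v1c1 (ENSMUSG00000022295), a subunit of the stalk, with 284, 274, 273 and 275 CPM in control libraries and 253, 268, 257 and 265 CPM in cKO libraries. Groups separated in this direction in 1.39% of all tested genes, and either way in 3 of the 48 genes (6.25%) beside 2.96% of those tested. The log2 fold changes were -0.09 for Atp6v1a (SE 0.052, 95% interval -0.20 to 0.02) and -0.08 for Atp6v1c1 (SE 0.051, 95% interval -0.19 to 0.02), and the edgeR adjusted p was 0.889 for both. Without cKO replicate 1 they were -0.08 and -0.07. DESeq2 gave Atp6v1a an unadjusted p of 0.0418.

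The other V-ATPase genes stood closer to 0. Atp6v1b2, the brain form of the subunit that partners the catalytic one, held 740 ± 18.5 CPM in control brain against 741 ± 60.5 CPM in cKO brain (SD, n = 4). The stalk and regulatory subunit genes Atp6v1e1 and Atp6v1h stood at -0.04 and -0.05 (-0.03 and -0.07 without cKO replicate 1). In the membrane sector, Atp6v0a1 stood at 0.02 and Atp6v0d1 at 0.0074, and the accessory gene Atp6ap1 at 0.03. For these last 3 and for Atp6v1b2, cKO replicate 1 held the highest value of the 8 libraries, and without it their values were -0.03, -0.04, -0.03 and -0.06. All 8 V-ATPase genes were then below 0, with a median of -0.05; with GC-content offsets the median was -0.01 and 3 were above 0.

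**Figure D3:**
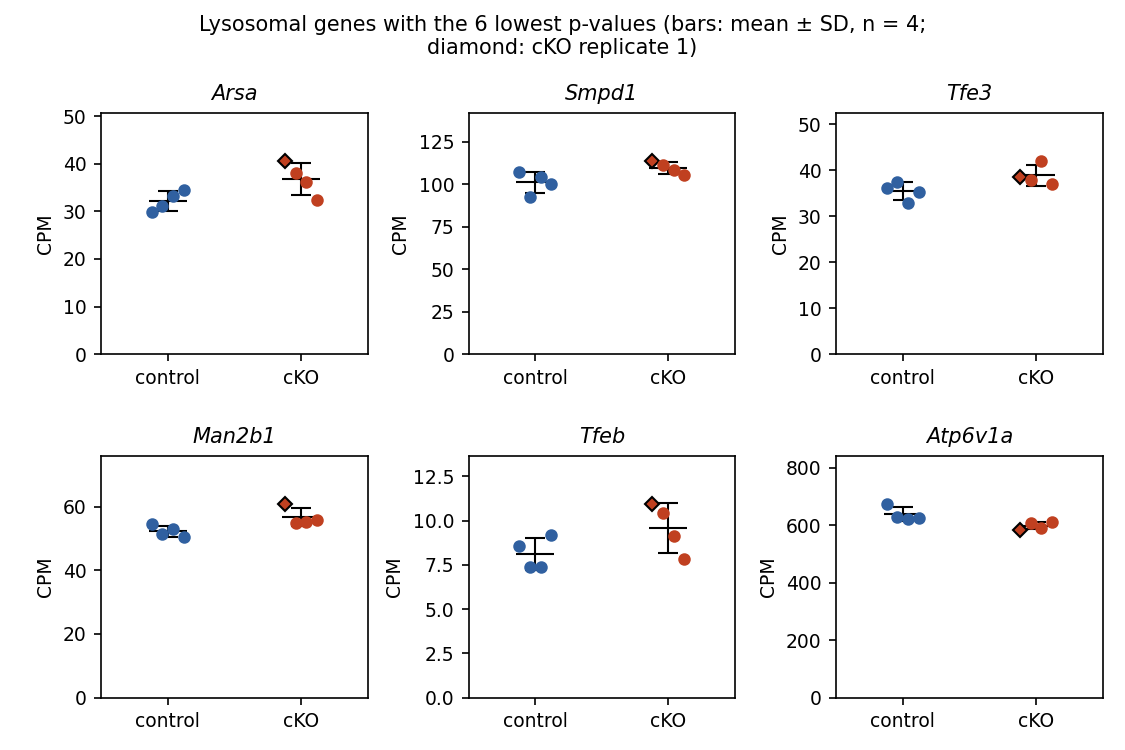
CPM (vertical axes, from 0) in each of the 4 control and 4 cKO libraries for the 6 lysosomal genes with the lowest p-values; points are libraries, bars the mean ± SD, and the diamond is cKO replicate 1. The groups are apart for Man2b1, higher in cKO, and Atp6v1a, lower in cKO, and overlap for Arsa, Smpd1, Tfe3 and Tfeb.

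Class by class, cKO replicate 1 held the highest median in 6 of the 7 summaries drawn, membrane proteins being the exception. Relative to the control mean, the median log2 CPM of all 48 genes was 0.12 in this library and between -0.03 and 0.02 in the other 7. For glycosidases and sulfatases the cKO libraries stood at 0.20, 0.10, -0.0089 and -0.05, and for the TFEB family with folliculin at 0.27, 0.08, 0.15 and -0.06. For V-ATPase they stood at 0.05, -0.06, -0.06 and -0.04, so that 3 of the 4 lay below every control library (-0.02 to 0.02).

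**Figure D4:**
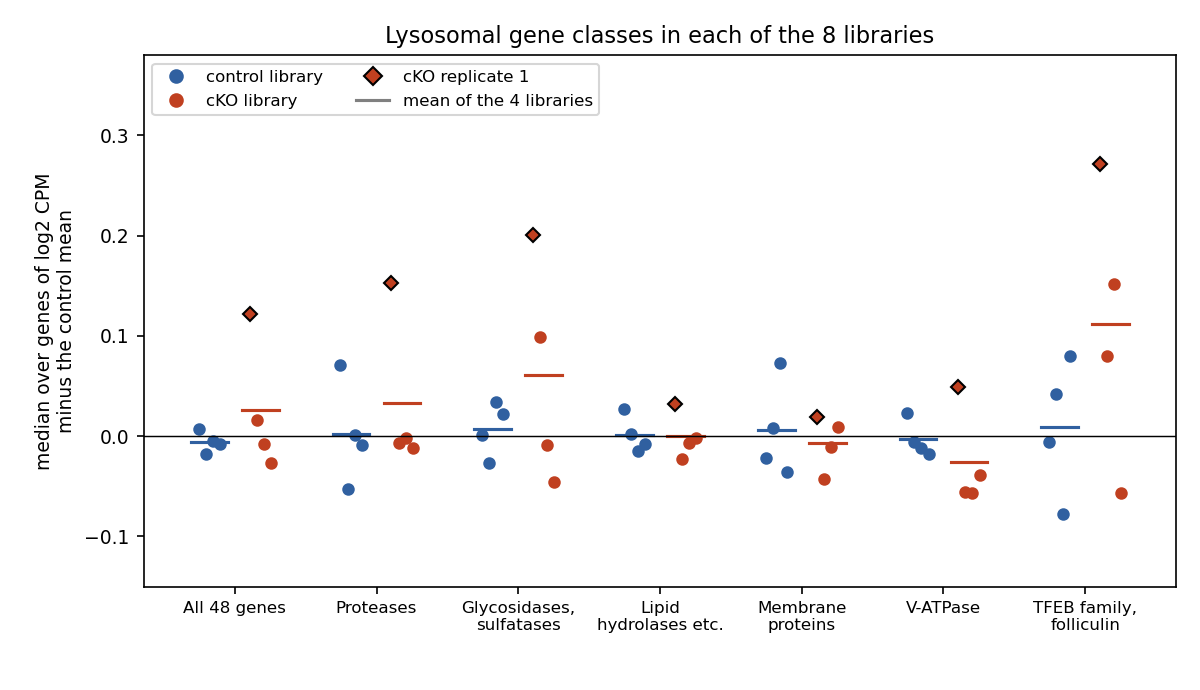
Median over the genes of a class of log2 CPM minus the gene's control mean (vertical axis), for all 48 genes and each class (horizontal axis); points are the 8 libraries, lines the means of 4, and diamonds cKO replicate 1. The diamond is the highest point in every group of points but the membrane proteins.

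Differences between cKO and control followed base composition, less so without cKO replicate 1. Across the 48 genes the log2 fold change correlated with the GC content of the longest transcript (Spearman's rho 0.603, n = 48 genes from the same 8 libraries, which are not independent). Leaving out cKO replicate 1 gave 0.441, and GC-content offsets gave 0.227. Across 10331 genes with a mean of at least 10 CPM the correlation was 0.494, 0.192 and 0.0582. The offsets take out each library's trend with this same GC content, so the lower values with them follow from the method. The lysosomal genes had a median GC content of 51.3%, against 49.6% over all genes tested, and 31 of the 48 lay above the latter. The 24 genes with the higher GC content had a median log2 fold change of 0.07, or 0.0034 without that library. The 24 with the lower GC content had -0.03 and -0.03. By class, median GC content was 53.5% for the TFEB class and likewise for glycosidases and sulfatases, and 48.7% for V-ATPase. The part of base composition in the differences between classes was not tested.

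**Figure D5:**
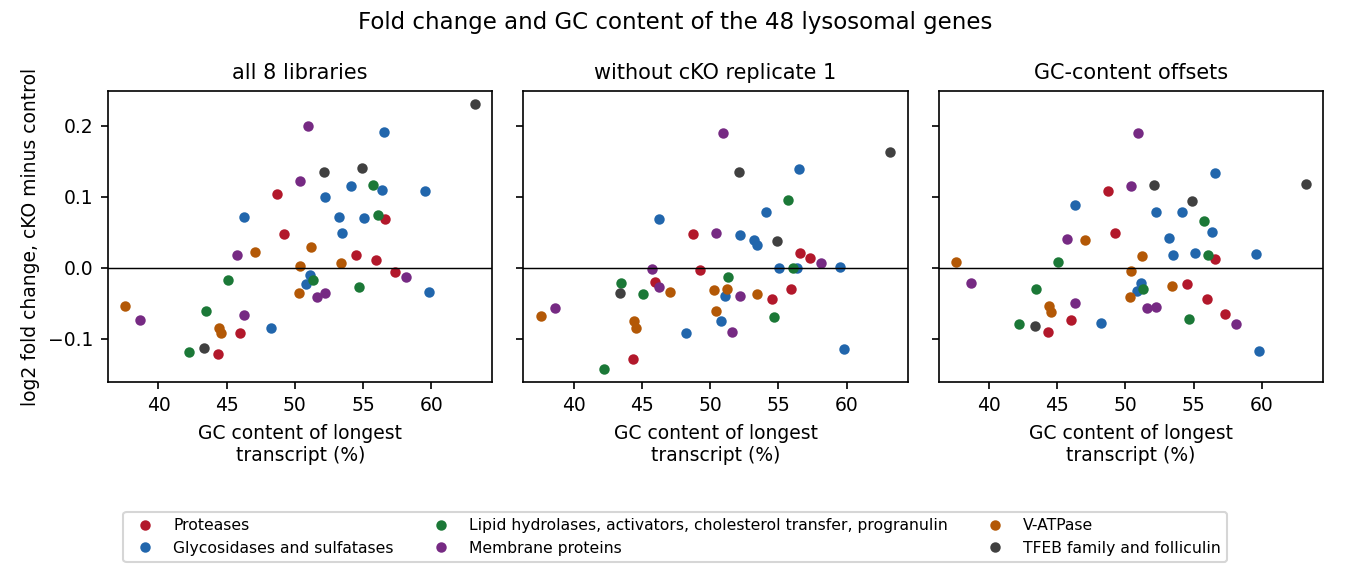
Log2 fold change (vertical axis, cKO minus control) against GC content of the longest transcript in percent (horizontal axis) for the 48 genes, 1 point per gene coloured by class, in 3 fits. Points rise from left to right with all 8 libraries (rho 0.603), less so without cKO replicate 1 (0.441), and least of the 3 with GC-content offsets (0.227). The offsets are fitted on this same GC content, so the last value is lower by construction.

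Lysosomal genes outside the list gave no calls either. Of 30 further hydrolase genes tested, 13 were above 0 (median -0.0095) and 2 had an unadjusted edgeR p under 0.05, where 4.78% of all tested genes did. Dpp7, a dipeptidyl peptidase, had the lowest p of this list and held 17.0 to 22.7 CPM in control libraries and 21.9 to 26.8 CPM in cKO libraries (log2 fold change 0.30, SE 0.098, edgeR adjusted p 0.889). Of 26 further membrane and transport genes, 19 were above 0 (median 0.05) and 1 had an unadjusted p under 0.05. The lowest p-values were those of the cystine exporter gene Ctns at 0.25 and of Spns1, a lysophospholipid transporter gene, at 0.15; summed over the list, cKO replicate 1 held 2071 CPM and the other libraries 1849 to 1909.

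Of 21 further V-ATPase subunit and assembly genes, 10 were above 0 (median -0.01). An unadjusted edgeR p under 0.05 was reached by 2 (9.52%), where 4.78% of all tested genes reached it. Tcirg1, an alternative membrane-sector subunit, stood at 0.26 and Ncoa7, which binds the pump, at -0.14. Among 19 genes that sort enzymes to the lysosome (list median -0.02), the adaptor gene Gga3 stood at 0.14, with all cKO libraries above the controls. Cln8, which helps enzymes leave the endoplasmic reticulum, stood at -0.17. Of these 19, 3 (15.8%) had an unadjusted edgeR p under 0.05 beside the same 4.78%, the third being the adaptor gene Gga1 at 0.16. Among 26 genes of mTORC1 and of the control of TFEB, 17 were below 0 (median -0.01) and 0 had an unadjusted edgeR p under 0.05. Rragd, a Rag GTPase through which mTORC1 acts on TFEB, stood at -0.11 and Lamtor2, a scaffold of the Rag complex, at -0.14. Rheb, the GTPase that activates mTORC1, was the 1 gene of this list with all cKO libraries below the controls (-0.09), named after its values were seen. Of all tested genes, 1.39% had every cKO library below the controls and 1.57% had every cKO library above them. None of the genes in these 5 lists passed edgeR's adjusted test.

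Cell type markers were summarised in the same way. Of the 13 astrocyte markers 7 were above 0 (median 0.05), and the water channel gene Aqp4 was the only 1 in any marker list to pass edgeR's adjusted test, at a log2 fold change of 0.46. Unadjusted edgeR p was under 0.05 for 3 astrocyte markers higher and 1 lower in cKO (30.8%, beside 4.78% of all tested genes). For 3 of the 13 every cKO library lay above the controls (23.1%), where groups separated either way in 2.96% of all tested genes. Medians were -0.01 for 13 oligodendrocyte, -0.04 for 8 precursor, -0.01 for 10 excitatory neuron, 0.03 for 10 inhibitory neuron, -0.08 for 10 endothelial and -0.04 for 7 mural markers tested. They were -0.24 for 8 choroid plexus, 0.03 for 8 meningeal fibroblast, 0.14 for 6 perivascular macrophage and -0.65 for 2 blood markers tested, lists whose medians varied between the control libraries as well. Below 0 were 9 of the 10 endothelial and 7 of the 8 choroid plexus markers. The part of cell composition in the lysosomal values was not tested.

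Counts of some genes are uncertain because their exons overlap another gene. In the GENCODE M21 annotation of GRCm38, used here because the authors' annotation is not given, 18 of the 48 genes share exon bases with a neighbour. Ctsd shares 34.4% of its exon bases with Gm49369 on its own strand, which was listed at 0 reads. Arsb shares 32.3% with Gm26527, Ctsl 26.9% with an antisense gene listed at 0 reads, Arsa 18.8% with an antisense gene that held 270 reads over the 8 libraries, and Sgsh 21.6% with Card14. Cln3 shares 7.65% with Apobr. Reads on shared bases can be set aside as ambiguous, and that share was 10.1% of listed reads in cKO replicate 1 and at most 6.16% elsewhere; its part in the values was not tested.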

How the data were processed

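The authors deposited 1 file per library with raw counts of reads per gene (whole numbers, not normalized) for brain RNA. HISAT2 and build GRCm39 are named per the submitters' processing notes; for the counting program, strand setting and annotation, the sources used here give nothing. RNA came from a column kit, and a commercial provider made the libraries, per the labels' protocols. The 5 entries that name no gene stayed out (20.3% to 36.2% of listed reads). Symbols were matched for 51880 of 57186 identifiers. Counts were filtered with filterByExpr, scaled by TMM and compared in 1 fit of group over all genes in edgeR 4.0.16 under R 4.3.3 (robust quasi-likelihood test), Benjamini-Hochberg adjusted, threshold 0.05; a test on simulated data preceded it. CPM are TMM-scaled. SE is the log2 fold change over the root of F. Transcript length and GC content come from GENCODE M21 and promoters from RefSeq, both of GRCm38; no coordinate was joined with the authors' build. The members and lists were chosen with earlier results of these data known. Named were Akap11, every listed gene, full statistics going to the 6 with the lowest p-values, and up to 2 genes with the lowest p-values per other pathway list (1 is not reported here); further detail for Cln3, Mcoln1, Ctsl, Ctss, Psap, Gaa, Atp6v1c1, P2ry12, Gga1 and Rheb, and the non-overlap of groups, was chosen after values were seen. Alternatives were DESeq2 1.42.0 as test or size factors, library totals, limma voom 3.58.1, other filters, a replicate block, GC-content offsets, removal of mitochondrially encoded genes, and libraries left out.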

Additional observations from a re-analysis of the deposited data

Results flagged for a closer look

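In 5 of the 96 groups of 4 libraries (48 genes in control and in cKO brain), 1 library lay apart from the other 3 by more than Dixon's 95% critical value for the gap over the range, where chance flags about 1 group in 20. In cKO replicate 1, Atp6v1b2 stood at 831 CPM and Atp6ap1 at 391 CPM, each the highest of its group. In cKO replicate 4, Fuca1 was lowest at 27.9 CPM. In control replicate 1, Atp6v1a was highest at 674 CPM, and in control replicate 3, Lamp1 was highest at 248 CPM. Of the summed levels, the V-ATPase genes stood apart in cKO replicate 1 at 3443 CPM, and the lipid hydrolase class in control replicate 1 at 2321 CPM.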

How the results depend on the processing

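No lysosomal gene passed the adjusted test in any of the 18 alternatives, the lowest adjusted p being 0.679 (edgeR, without cKO replicate 4). The number of lysosomal genes with an unadjusted p under 0.05, which was 1 with all libraries, was 2 with library totals and with DESeq2, 0 under the replicate block and 0 under GC-content offsets. With 1 library left out the number ran from 0 (cKO replicate 1 left out) to 4 (cKO replicate 4 left out), and was 3 without control replicate 4. The share of all genes moved as well. It was 4.78% with all libraries, 4.89% with library totals, 2.25% with DESeq2, 4.07% under the replicate block and 4.62% under GC-content offsets. Without cKO replicate 1 it was 3.88%, without cKO replicate 4 7.22%, and without control replicate 4 5.91%. Over all genes, 4 calls became 2 with limma voom, 7 with no low-count filter, 2 under the replicate block, 2 with both control replicate 1 and cKO replicate 1 left out, and 0 to 3 with 1 library left out, 0 being the count without control replicate 2 and without cKO replicate 2. Libraries with the same number correlated between -0.0055 and 0.053 in their deviations from the group means, and control replicate 4 correlated best with cKO replicate 3 (0.11), so the numbers were not taken as pairs. The median log2 fold change of the 48 genes ran from -0.020 to 0.023 with 1 library left out, the lowest being that without cKO replicate 1, and was -0.011 with both left out. For glycosidases and sulfatases it ran from 0.00058 to 0.11, and was 0.022 under GC-content offsets and 0.039 with both left out. For the lipid class it ran from -0.037 to -0.013 and for V-ATPase from -0.049 to -0.013; with both left out it was -0.040 for each. The cause of these shifts was not tested. Depth limits Sgsh, Tfeb and the other genes of few reads most, and 4 libraries per group limit all of them.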
